A study of Mus musculus with 12 samples.

Results

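Collagen chains other than those of cartilage were followed in the dermis of newborn mice over 2 body sites and 2 ages. The members were all genes with a symbol of the form Col, number, a, number that were measured by probe sets annotated to exactly 1 gene, without Col2a1, Col9a1, Col9a2, Col9a3 and Col11a2, which make up the collagens of cartilage. This rule, which uses names and no measured value, gave 37 chains, read by 74 of the 34945 probe sets with 1 gene symbol, among 18193 genes in all. The data were 12 Affymetrix arrays of 1 colour, 3 for each of the groups labelled P5 tail, P5 back, P1 tail and P1 back, where P5 and P1 are 5 days and 1 day after birth. All mice are labelled as C57Bl6/CBA F1, with no allele or agent given. Dermis was parted from epidermis by EDTA for tail and by dispase with trypsin for back, then digested to single cells that were lysed for RNA, so that body site and parting solution cannot be told apart. The sources describe this for P1, with RNA of triplicate mice, and do not say how the P5 mice were handled or how many there were. The p-values measure the spread between arrays.

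Collagens are built of 3 chains wound into a triple helix, and each chain has a gene of its own. In dermis, fibril-forming types I, III and V give tensile strength, FACIT collagens (fibril-associated, with an interrupted helix) sit on fibril surfaces, and type VI forms beaded filaments around cells. Type IV forms the network of basement membranes, type VII anchors the epidermal basement membrane to the dermis, and transmembrane collagens such as type XVII are made by the cells they sit on.

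Each value below is a log2 value centred per probe set on its median over the 12 arrays, and a chain with several probe sets is given by their mean. Differences between arrays can be read, and levels cannot, so no chain is set above or below another in abundance and saturation or low signal of a probe cannot be seen. A chain was called where its p from limma, adjusted over all 18193 genes by the Benjamini-Hochberg method, was under 0.05. Differences are labelled tail minus labelled back, or P5 minus P1, in log2 units.

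The site labels and the marker genes differed. Of 10 posterior Hox genes, which mark caudal positions, 7 were lower and 0 higher in arrays labelled tail at each age, with a difference of -3.28 at P5 and -3.09 at P1 for Hoxd11. The mean of the 10 lay between -0.83 and -0.62 in the arrays labelled tail and between 0.68 and 0.79 in those labelled back. All 6 adipocyte genes were higher in arrays labelled P1 tail than in P1 back, with a difference of 5.23 for Adipoq, while at P5 1 of the 6 was called, with a median difference of 0.55 and -0.21 for Car3. The groups are therefore named by their labels, and if the labels of both ages were exchanged every tail minus back sign below, and that of the interaction, would turn. Among 8 fibroblast genes 3 (37.5%) differed by site at P5, against 6.91% of all genes, and 1 (12.5%) at P1, against 3.97%. The array labelled P5 tail replicate 2 stood apart, with a spread of 0.50 (SD over probe sets) against 0.23 to 0.34 on the other arrays. P1 back replicates 1 and 6 and P5 back replicate 3 had the highest mean of 15 cartilage genes, at 1.90, 1.59 and 0.76, with the other arrays between -0.30 and 0.12. These 3 also had the highest mean of 6 tendon genes, at 2.15, 1.57 and 1.74, with the others between -0.67 and 0.52. Their mean of 8 skeletal muscle genes was 0.48, 0.75 and 1.21, against -1.84 to -1.55 on the other back arrays. That mean ran from 0.57 to 1.92 in P1 tail and from -0.84 to -0.34 in P5 tail, and none of the 8 genes was called by site. Calls that end without these arrays are named beside the values, and in bulk RNA fewer cells of a type and less RNA per cell cannot be told apart.

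At P5, 14 of the 37 chains (37.8%) differed between arrays labelled tail and back, against 6.91% of all genes. Of these, 7 were higher in labelled tail (4.30% of all genes) and 7 lower (2.61% of all genes), and the median difference was -0.17, against -0.02 over all genes. At P1, 9 chains (24.3%) differed, against 3.97% of all genes, with 2 higher (2.06% of all genes) and 7 lower (1.91% of all genes), and a median of -0.09, against -0.04 over all genes. The arrays of both sites did not overlap for 21 chains at P5 (20.6% of all genes) and 19 at P1 (30.2% of all genes). Over the 5 comparisons, those of age and the interaction included, 19 chains were called at least once and 18 in none. Both lists hold fibrillar, network and filament-forming chains.

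**Figure D1:**
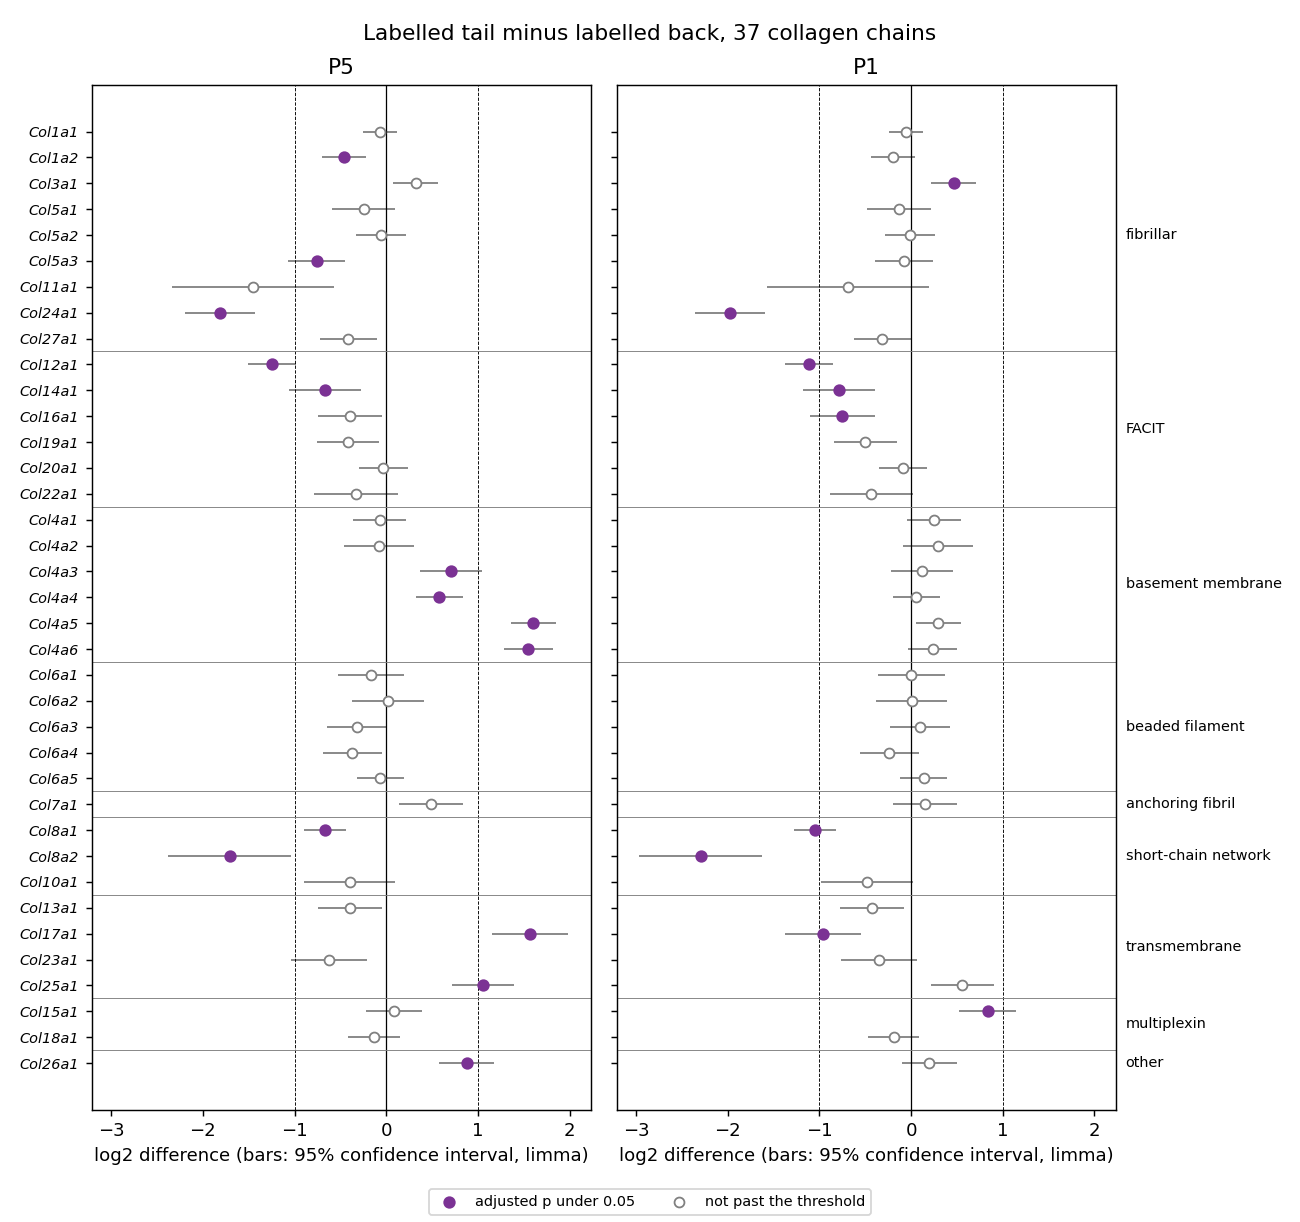
Difference between arrays labelled tail and back for the 37 collagen chains at P5 (left) and P1 (right), in log2 units, with bars for the 95% confidence interval, filled points for an adjusted p under 0.05 and dashed lines at 2-fold. Col24a1, Col12a1, Col14a1, Col8a1 and Col8a2 lie to the left in both panels, Col4a3 to Col4a6 lie to the right at P5, and Col17a1 changes side.

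Of 9 fibrillar chains, 3 were lower in labelled tail at P5 and none was higher, and 1 was lower and 1 higher at P1. Col24a1, a minor fibril-forming chain best known from developing bone, had values of -0.75, -0.92 and -1.05 in P5 tail, against 1.23, 0.60 and 0.88 in P5 back. At P1 it had -0.60, -0.61 and -0.93 in tail, against 1.49, 0.96 and 1.34 in back. No labelled tail array reached the lowest back array at either age, and the differences were -1.81 ± 0.18 at P5 (SE, adjusted p = 5.8e-05) and -1.98 ± 0.18 at P1 (adjusted p = 3.8e-05). It is read by 1 probe set and kept its call in the limma refits run, those without the arrays high in cartilage genes included. The methods' t-test after Benjamini-Hochberg adjustment called no chain for site at P1.

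The chains of types I and III, the main collagens of dermal fibrils, differed by at most 1.38-fold between labelled sites. Col1a1, a chain of type I collagen, had values of 0.07, -0.01 and -0.01 in P5 tail, against 0.04, 0.12 and 0.09 in P5 back. At P1 they were -0.06, -0.10 and -0.06 in tail, against 0.05, -0.05 and -0.04 in back. Its range over the 12 arrays was 0.217, and the tail minus back difference was -0.07 at P5 (95% confidence interval -0.25 to 0.12) and -0.06 at P1 (-0.24 to 0.13). Col1a2, the partner chain of Col1a1, had -0.37, -0.15 and -0.02 in P5 tail, against 0.25, 0.25 and 0.34 in P5 back. It fell by 0.46 in labelled P5 tail (adjusted p = 0.025), with 1 of its 3 probe sets called on its own, and the call ended without P5 tail replicate 2 (adjusted p = 0.054), without any 1 of the P5 back arrays (adjusted p = 0.07 to 0.096) or without the arrays high in cartilage genes (adjusted p = 0.21). At P1 Col1a2 was at -0.12, -0.26 and -0.03 in tail, against 0.18, 0.00 and 0.00 in back, and was not called.

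Col3a1, which forms the thin fibrils of type III collagen in young skin, ran the other way. Its values were 0.21, -0.02 and 0.28 in P1 tail, against -0.23, -0.39 and -0.29 in P1 back, a difference of 0.47 ± 0.11 (SE, adjusted p = 0.038). At P5 they were 0.22, 0.29 and 0.08 in tail, against -0.24, -0.14 and 0.02 in back, a difference of 0.32 (adjusted p = 0.12). The sites did not overlap at either age, and 1 of its 2 probe sets was called on its own at P1. The P1 call ended on leaving out any 1 of P1 tail replicates 4 and 6 and the P1 back arrays (adjusted p = 0.08 to 0.18), and without the arrays high in cartilage genes (adjusted p = 0.4).

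Among the chains of type V, which joins type I in fibrils and limits their width, Col5a3 was at -0.22, -0.63 and -0.70 in P5 tail, against 0.20, 0.22 and 0.31 in P5 back. The difference was -0.76 ± 0.14 (SE, adjusted p = 0.0069), and without the arrays high in cartilage genes the adjusted p was 0.06. At P5 1 of its 2 probe sets was called on its own. At P1 its arrays overlapped, with -0.01, -0.24 and -0.01 in tail, against 0.21, -0.24 and 0.00 in back. Col5a1, Col5a2 and Col27a1 were called in no comparison. Col11a1, the fibrillar chain that is found in cartilage and kept by the rule, had -0.32, -0.94 and -1.12 in P5 tail, against 0.25, 0.54 and 1.19 in P5 back. Its difference of -1.45 (95% confidence interval -2.33 to -0.57) missed the threshold at an adjusted p that rounds to 0.05. In P1 back it was at 1.40 and 0.95 on the arrays high in cartilage genes and at -0.57 on the other. The part of cartilage cells in the values of Col11a1 was not tested.

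Of 6 FACIT chains, 2 were lower in labelled tail at P5 and 3 at P1, and none was higher at either age. Col12a1, which binds the surface of type I fibrils in skin and tendon, was at -0.77, -0.89 and -0.73 in P5 tail, against 0.49, 0.52 and 0.36 in P5 back. At P1 it was at -0.33, -0.69 and -0.43 in tail, against 0.81, 0.56 and 0.51 in back. The sites lay apart at both ages, with differences of -1.25 ± 0.12 (SE, adjusted p = 5.6e-05) and -1.11 ± 0.12 (adjusted p = 0.00018), and all 4 of its probe sets were called lower at each age.

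Col14a1, a related fibril-surface chain, had 0.02, -0.55 and -0.46 in P5 tail, against 0.15, 0.33 and 0.54 in P5 back. In P1 tail it had -0.29, -0.75 and -0.41, against 0.54, 0.05 and 0.34 in P1 back. The differences of -0.67 (adjusted p = 0.044) and -0.79 (adjusted p = 0.027) were called without overlap of the arrays. At each age 1 of its 3 probe sets was called on its own. The P5 call was lost in 11 of 13 alternatives, at adjusted p from 0.051 to 0.23, on leaving out any 1 of P5 tail replicates 3 and 4 and the P5 back arrays among them. The P1 call ended without P1 tail replicate 5 (adjusted p = 0.091), P1 tail replicate 6 (0.076), P1 back replicate 1 (0.12), P1 back replicate 6 (0.11) or the arrays high in cartilage genes (0.82).

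Col16a1, a FACIT chain of the upper dermis, was at -0.52, -0.65 and -0.75 in P1 tail, against 0.35, 0.01 and -0.02 in P1 back, a difference of -0.75 ± 0.16 (SE, adjusted p = 0.02). At P5 it overlapped, at 0.47, -0.22 and -0.01 in tail, against 0.43, 0.58 and 0.41 in back. The P1 call ended on leaving out P1 back replicate 1 (adjusted p = 0.096), P1 tail replicate 6 (0.099) or the arrays high in cartilage genes (0.56).

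**Figure D2:**
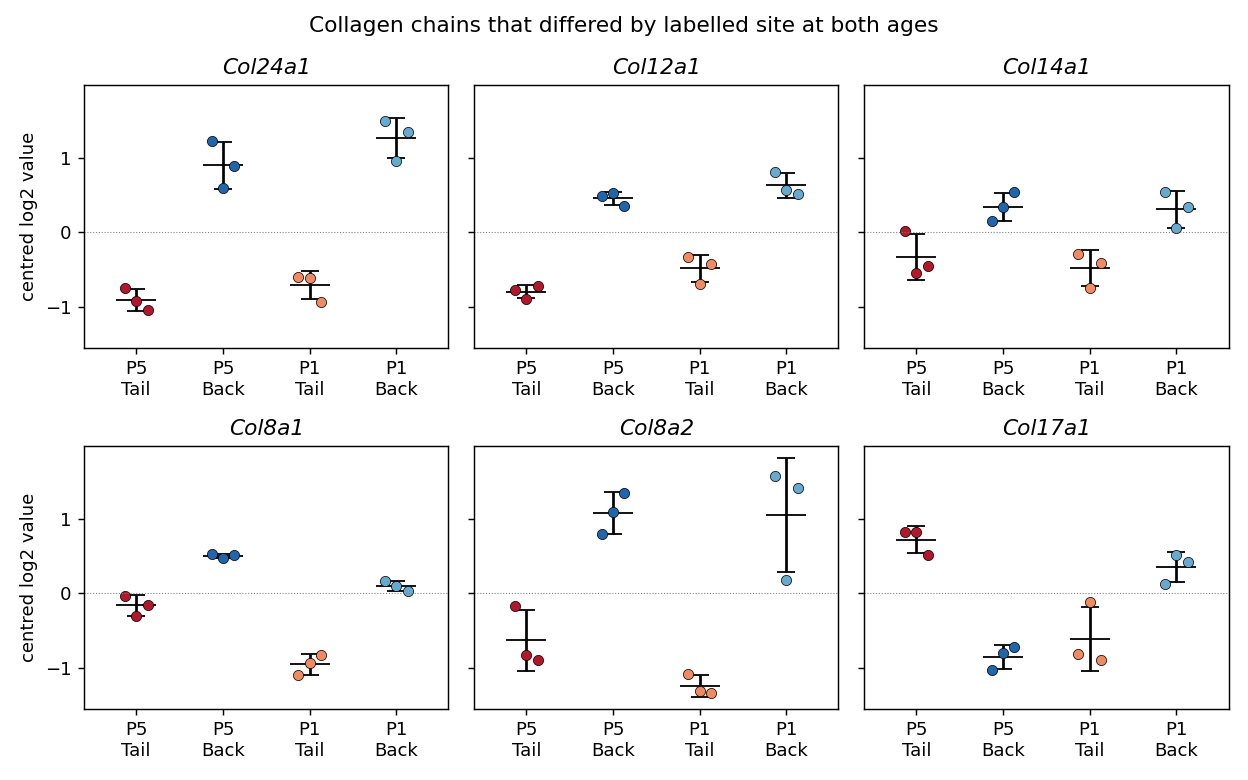
Values of 6 chains called between labelled sites at both ages, on each of the 12 arrays, in centred log2 units, with a line for the mean and bars for the SD of the 3 arrays of a group. For Col24a1, Col12a1, Col14a1, Col8a1 and Col8a2 the labelled tail arrays lie below the back arrays of the same age, and for Col17a1 they lie above at P5 and below at P1.

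Type VIII collagen, a short-chain collagen that forms sheets under endothelium and in the cornea, was lower in labelled tail at both ages for each of its chains. Since both chains moved together, the first 200 of the 250 bases before their listed starts are shown (RefSeq, GRCm38.p6), with capitals for GGGCGG, the core of the GC box, or its reverse complement CCGCCC. The bases run 5′ to 3′ towards the gene, from 250 to 51 bases before the start.
Col8a1 (chr16:57754788-57754987, minus strand): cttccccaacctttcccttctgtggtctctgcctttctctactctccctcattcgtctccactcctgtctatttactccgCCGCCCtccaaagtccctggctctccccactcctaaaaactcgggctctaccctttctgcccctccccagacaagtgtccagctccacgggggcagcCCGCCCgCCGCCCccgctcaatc
Col8a2 (chr4:126286544-126286743, plus strand): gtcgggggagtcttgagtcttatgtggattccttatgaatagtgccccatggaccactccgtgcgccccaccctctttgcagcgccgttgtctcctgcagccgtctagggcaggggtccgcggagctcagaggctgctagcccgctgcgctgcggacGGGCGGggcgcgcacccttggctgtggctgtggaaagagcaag
The motif was found 3 times on the reverse strand for Col8a1 and 1 time on the forward strand for Col8a2, and 24.6% of 32851 mouse windows of that length and place hold it on either strand. TATAAA, the core of the TATA box, and CCAAT were found in neither window, and are held by 9.1% and 28.4% of all windows.

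Col8a1 was at -0.04, -0.31 and -0.16 in P5 tail, against 0.53, 0.48 and 0.51 in P5 back. It was at -1.10, -0.94 and -0.82 in P1 tail, against 0.16, 0.10 and 0.02 in P1 back. The difference was -0.67 ± 0.11 at P5 (SE, adjusted p = 0.002) and -1.05 ± 0.11 at P1 (adjusted p = 0.00011), with 2 of 3 probe sets called on their own at P5 and 3 of 3 at P1.

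Col8a2, the partner of Col8a1 on another chromosome, was at -0.17, -0.83 and -0.90 in P5 tail, against 0.79, 1.08 and 1.35 in P5 back. It was at -1.08, -1.32 and -1.34 in P1 tail, against 1.57, 0.17 and 1.42 in P1 back. The sites did not overlap at either age, and the differences were -1.71 ± 0.31 (SE, adjusted p = 0.0049) and -2.30 ± 0.31 (adjusted p = 0.00088). With array weights in limma the P5 call of Col8a2 ended (adjusted p = 0.065). Its 3 highest arrays were the 3 arrays high in cartilage and tendon genes. Without them the difference was -1.57 at P5 (adjusted p = 0.0052) and -1.41 at P1 (adjusted p = 0.071), where P1 back then holds 1 array that is assumed to vary like the other groups. Col10a1, the short-chain collagen of hypertrophic cartilage, was called in no comparison.

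Some tendon genes were lower beside these chains. Of the 6, 3 were lower in labelled tail at P5 and 2 at P1, and their mean lay between -0.53 and -0.07 in P5 tail, 0.17 and 1.74 in P5 back, -0.67 and -0.59 in P1 tail, and 0.11 and 2.15 in P1 back. Of the 15 cartilage genes, 1 was higher and none lower at P5 (6.67%, against 6.91% of all genes called). At P1 3 were lower (20.0%, against 3.97%). What part tendon or cartilage cells had in the lower values of Col8a1, Col8a2, Col12a1, Col14a1 and Col24a1 was not tested. Without the arrays high in these genes, the back arrays left still had a tendon mean above the tail arrays. It was at 0.17 and 0.52 in P5 back replicates 1 and 2 and at 0.11 in P1 back replicate 5.

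The type IV chains did not all differ by site. Col4a1 and Col4a2, which make the network found in all basement membranes, were called in no comparison. Col4a3 and Col4a4, which assemble with Col4a5 in kidney and lung, and Col4a5 and Col4a6, which form the network of epidermal and smooth muscle basement membranes, were all higher in labelled P5 tail. Each pair lies on 1 chromosome (8 for Col4a1 and Col4a2, 1 for Col4a3 and Col4a4, X for Col4a5 and Col4a6) with no other listed gene start between its members.

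Because Col4a5 and Col4a6 differed together, the same stretch before their starts is given (RefSeq, GRCm38.p6), with CCAAT in capitals.
Col4a5 (chrX:141475169-141475368, plus strand): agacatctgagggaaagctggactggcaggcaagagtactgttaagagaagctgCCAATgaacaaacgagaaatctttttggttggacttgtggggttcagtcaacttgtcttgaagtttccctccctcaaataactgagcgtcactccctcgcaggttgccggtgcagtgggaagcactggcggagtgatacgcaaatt
Col4a6 (chrX:141474127-141474326, minus strand): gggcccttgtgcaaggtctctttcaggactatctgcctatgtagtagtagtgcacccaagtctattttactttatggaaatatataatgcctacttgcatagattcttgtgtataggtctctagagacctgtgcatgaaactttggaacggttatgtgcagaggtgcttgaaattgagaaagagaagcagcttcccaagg
CCAAT was found 1 time, for Col4a5, while TATAAA and GGGCGG were found in neither window on either strand.

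Col4a5 was at 1.38, 1.29 and 1.13 in P5 tail, against -0.40, -0.36 and -0.25 in P5 back. At P1 it was at 0.06, 0.10 and 0.35 in tail, against -0.22, -0.14 and -0.02 in back. The labelled P5 tail arrays lay above all 9 others, and the difference was 1.61 ± 0.11 at P5 (SE, adjusted p = 5.9e-06) and 0.30 at P1 (95% confidence interval 0.06 to 0.54, adjusted p = 0.22). Col4a6 was at 1.48, 1.21 and 1.49 in P5 tail, against -0.31, -0.07 and -0.11 in P5 back. At P1 it was at 0.00, 0.24 and 0.01 in tail, against -0.33, -0.02 and -0.11 in back. Its difference was 1.55 ± 0.12 at P5 (SE, adjusted p = 1.9e-05) and 0.24 at P1 (-0.03 to 0.50, adjusted p = 0.43), and both probe sets of each of these chains were called at P5.

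Col4a3 was at 0.39, 1.04 and 1.08 in P5 tail, against 0.04, 0.26 and 0.09 in P5 back, and differed by 0.71 ± 0.16 (SE, adjusted p = 0.016). In P1 tail it was at -0.19, -0.16 and -0.20, against -0.42, -0.29 and -0.19 in P1 back, where the arrays overlapped. Col4a4 was at 0.80, 0.51 and 0.55 in P5 tail, against 0.09, 0.16 and -0.13 in P5 back, and differed by 0.58 ± 0.12 (adjusted p = 0.01). In P1 tail it was at -0.42, -0.12 and -0.31, against -0.31, -0.32 and -0.39 in P1 back. The P5 arrays of both sites lay apart for each chain, with 1 of 2 probe sets called for Col4a3 and 0 of 3 for Col4a4. The P5 call of Col4a3 ended without P5 tail replicate 3 (adjusted p = 0.054), P5 back replicate 1 (0.071) or P5 back replicate 3 (0.062). It also ended without the arrays high in cartilage genes, with the replicate number as a block (0.11) or with only the P5 arrays (0.092). That of Col4a4 ended without P5 back replicate 3 (0.053) or the arrays high in cartilage genes, and with array weights (0.063) or only the P5 arrays (0.069).

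**Figure D3:**
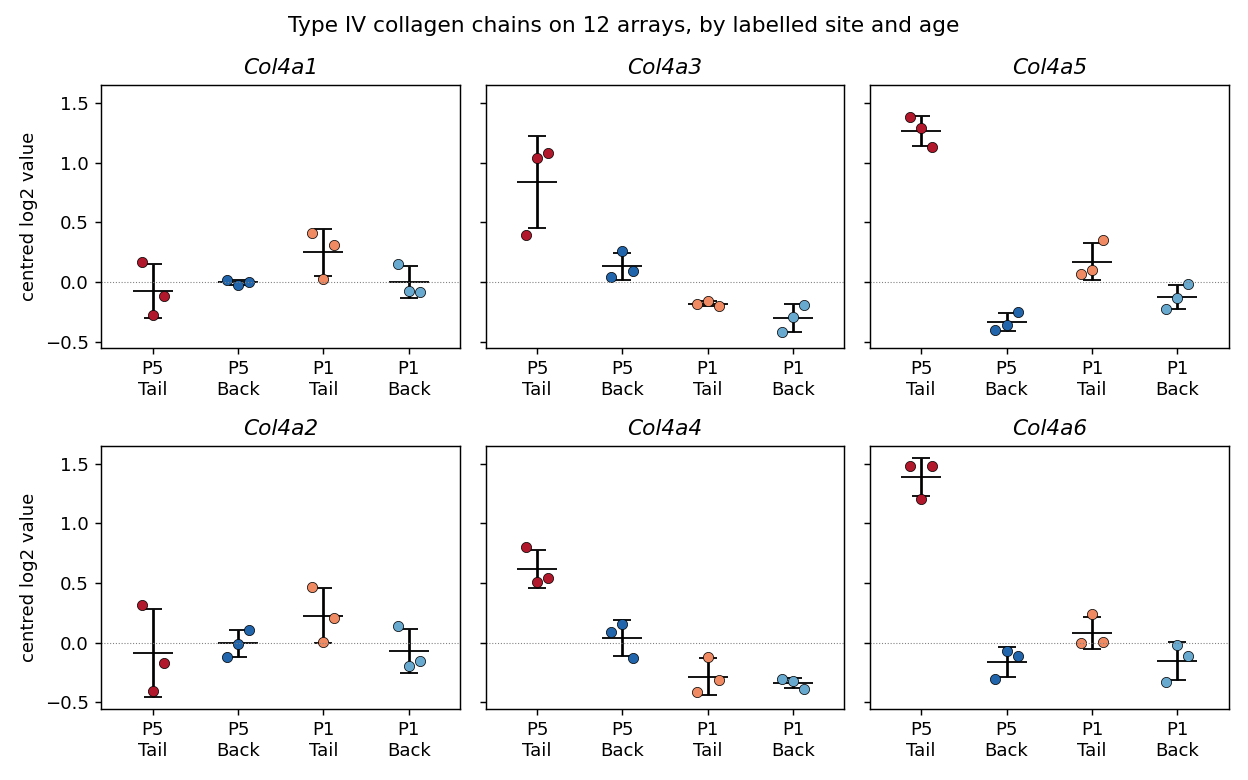
Values of the 6 type IV chains on each of the 12 arrays, in centred log2 units, with a line for the mean and bars for the SD of the 3 arrays of a group. Col4a1 and Col4a2 overlap between the groups, while Col4a5 and Col4a6 lie above 1.1 in all P5 tail arrays and below 0.4 elsewhere.

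Col17a1, a transmembrane collagen of the hemidesmosomes that fix basal keratinocytes to the basement membrane, was called in opposite directions at the 2 ages, the 1 chain to do so. It was at 0.82, 0.82 and 0.51 in P5 tail, against -1.03, -0.81 and -0.72 in P5 back. It was at -0.82, -0.12 and -0.90 in P1 tail, against 0.12, 0.51 and 0.42 in P1 back. No arrays of the 2 sites overlapped at either age. The differences were 1.57 ± 0.19 at P5 (SE, adjusted p = 0.00031) and -0.96 ± 0.19 at P1 (adjusted p = 0.012), both from 1 probe set. The P1 call ended on leaving out P1 tail replicates 4 or 6 or P1 back replicates 5 or 6 (adjusted p = 0.055 to 0.068), and without the arrays high in cartilage genes (0.18).

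Genes of basal keratinocytes moved beside it, although the samples were dermis. The mean of 8 such genes lay between 0.33 and 0.43 in P5 tail, -0.55 and -0.40 in P5 back, -0.44 and 0.03 in P1 tail, and -0.03 and 0.23 in P1 back. At P5, 4 of 8 were higher in labelled tail (Krt5, Krt14, Krt15 and Lamb3) and none lower, and at P1 1 was lower and none higher. Of 8 differentiated keratinocyte genes, 2 were higher and 1 lower at P5, and 3 were lower and none higher at P1. Of 8 hair follicle genes, 3 were higher and 2 lower at P5, and 1 was higher at P1. Over all genes 6.91% were called by site at P5 and 3.97% at P1. What part keratinocytes had in the values of Col17a1 and of the type IV chains was not tested. For Col4a5 and Col4a6 the P1 arrays labelled tail lay above those labelled back without overlap. The P1 arrays of both sites did not overlap for 30.2% of all genes, in either direction. The P1 differences of Col4a5 (0.30, adjusted p = 0.22) and Col4a6 (0.24, adjusted p = 0.43) were not called by limma, so a site difference at P1 was not shown. Col7a1, whose product is made by keratinocytes and fibroblasts, was called in no comparison, with a P5 difference of 0.49 (95% confidence interval 0.14 to 0.84, adjusted p = 0.095).

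**Figure D4:**
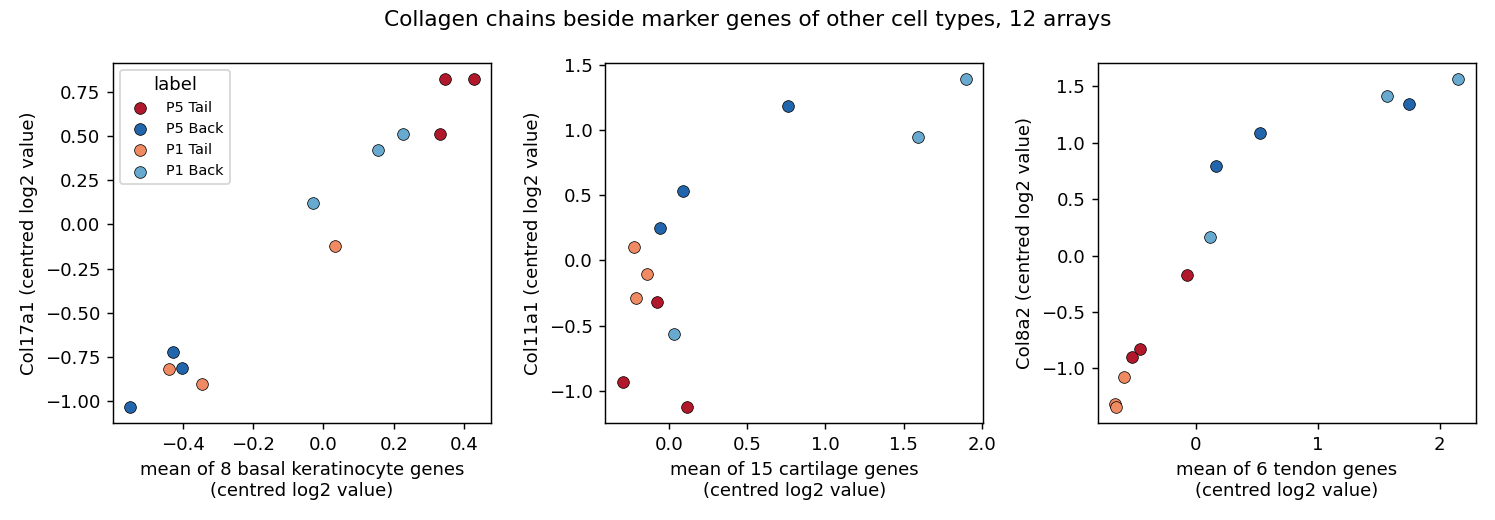
Values of Col17a1, Col11a1 and Col8a2 against the mean of 8 basal keratinocyte, 15 cartilage and 6 tendon genes, all in centred log2 units, with 1 point for each of the 12 arrays. Col17a1 is above 0 in P5 tail and P1 back, where the keratinocyte mean is -0.03 or above, and at -0.12 in P1 tail replicate 5, where that mean is 0.03, while the 3 arrays with the highest tendon mean (1.57 to 2.15) have the 3 highest values of Col8a2.

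Of the other transmembrane chains, Col25a1, known from muscle innervation and from the amyloid plaques of human brain, was at 0.98, 0.49 and 1.02 in P5 tail, against -0.18, -0.30 and -0.21 in P5 back, a difference of 1.06 ± 0.16 (SE, adjusted p = 0.0014). At P1 it was at 0.37, 0.08 and 0.29 in tail, against -0.40, -0.50 and -0.04 in back, a difference of 0.56 (adjusted p = 0.075). The arrays lay apart at both ages, and its 2 probe sets gave P5 differences of 0.43 and 1.69, of which 1 was called. Col13a1 and Col23a1 were called in no comparison.

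Among the multiplexins, which link basement membranes to the matrix beneath, Col15a1 was at 0.43, 0.10 and 0.33 in P1 tail, against -0.37, -0.62 and -0.66 in P1 back. The difference was 0.84 ± 0.14 (SE, adjusted p = 0.0044), with an adjusted p of 0.15 without the arrays high in cartilage genes. At P5 its arrays overlapped, at 0.32, -0.22 and 0.06 in tail, against -0.09, -0.02 and 0.02 in back. The mean of the 6 adipocyte genes moved beside it at P1, at 1.34 to 1.96 in tail and -1.54 to -1.45 in back, and their part in the difference was not tested. None of 8 endothelial genes was called in any of the 5 comparisons by limma, with 3 at an unadjusted p under 0.05 for site at P5 and 1 at P1. Col18a1, the other multiplexin, was called in none.

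Col26a1, first known from testis and ovary, was at 0.15, -0.06 and 0.12 in P5 tail, against -0.93, -0.97 and -0.53 in P5 back, a difference of 0.88 ± 0.14 (SE, adjusted p = 0.0021). Its P1 arrays overlapped, at 0.52, 0.11 and 0.21 in tail, against 0.16, 0.03 and 0.06 in back. Its 2 probe sets differed by 0.28 and 1.48 at P5. Without the second, which has the suffix _a in its name, the difference was 0.28 (adjusted p = 0.45). The 5 type VI chains showed no site difference past the threshold, with differences from -0.37 to 0.02 at P5 and from -0.24 to 0.14 at P1, and 1 chain had an unadjusted p under 0.05 in limma at P5 and 0 at P1.

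With age, 9 of 37 chains (24.3%) differed in arrays labelled tail, against 5.30% of all genes, 7 of them higher at P5 (3.34% of all genes) and 2 lower (1.96% of all genes). In arrays labelled back 4 chains (10.8%) differed, against 4.25% of all genes, with 1 higher (2.22% of all genes) and 3 lower (2.03% of all genes). The arrays of both ages did not overlap for 16 chains in tail (19.4% of all genes) and 13 in back (28.0% of all genes). Median differences were -0.05 in tail and 0.02 in back, against 0.04 and 0.01 over all genes. These comparisons use the same arrays as those of site, whose values are given above. Marker genes of other cell types also differed with age. In labelled tail 5 of 6 adipocyte, 2 of 8 skeletal muscle and 2 of 6 macrophage genes were lower at P5, and 1 of 8 hair follicle genes was higher. In labelled back 7 of 8 differentiated keratinocyte genes were lower at P5, 4 of 6 adipocyte genes were higher, and of 8 hair follicle genes 5 were higher and 1 lower. Their part in the changes of the chains was not tested.

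**Figure D5:**
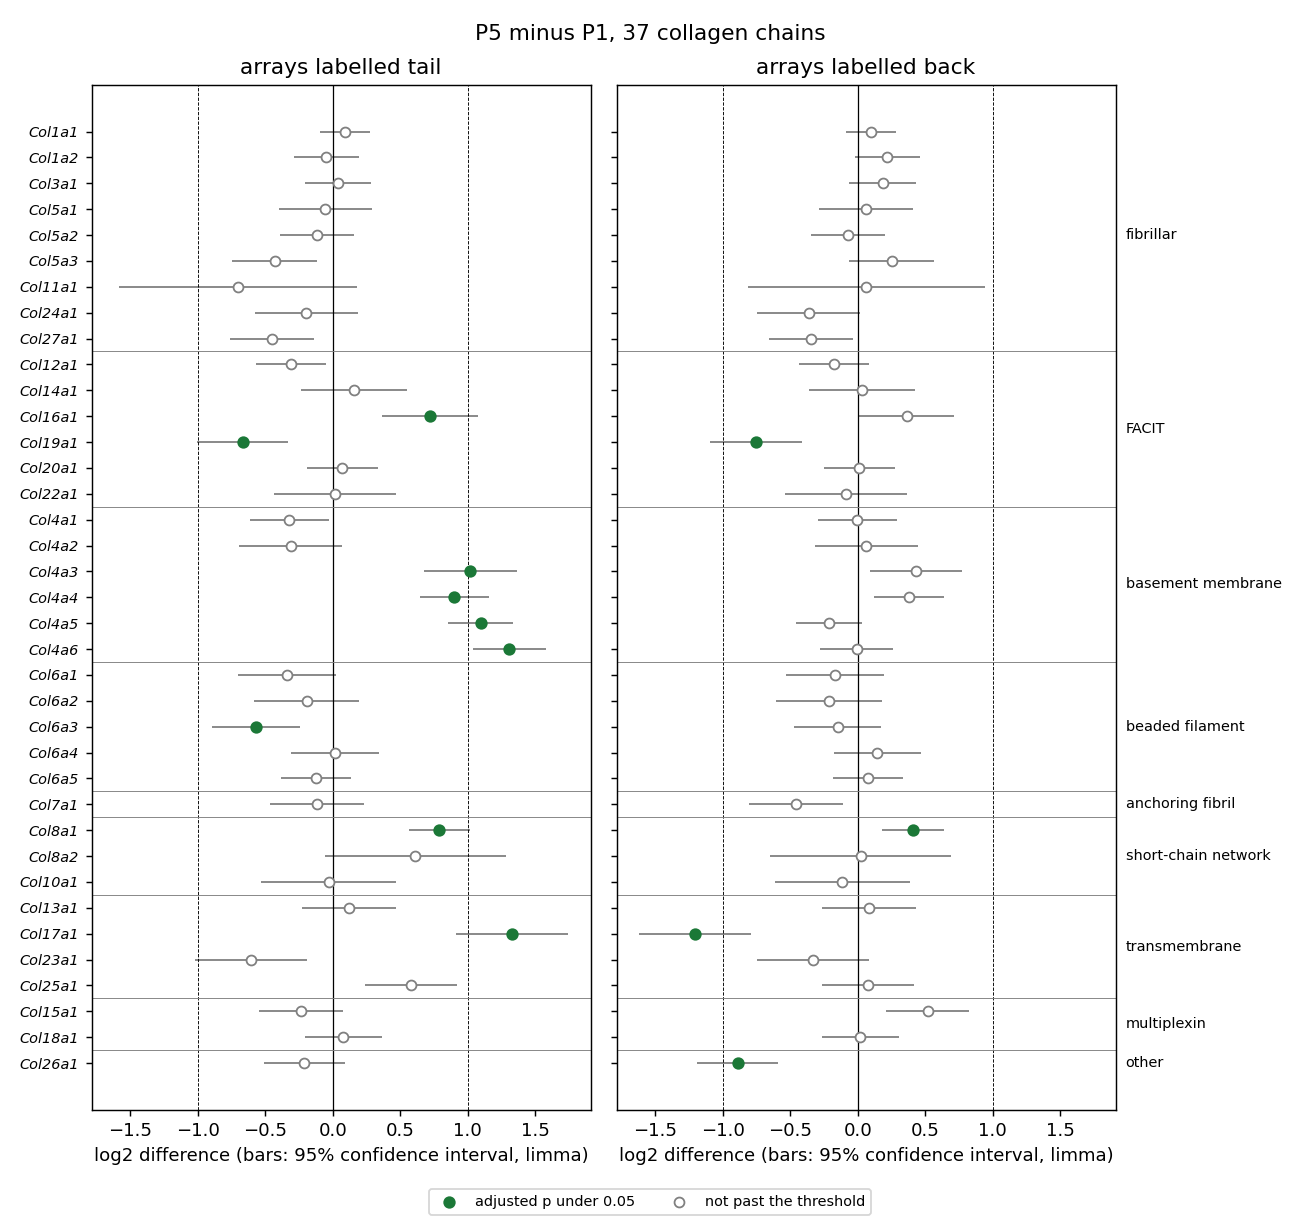
Difference between P5 and P1 for the 37 collagen chains in arrays labelled tail (left) and back (right), in log2 units, with bars for the 95% confidence interval, filled points for an adjusted p under 0.05 and dashed lines at 2-fold. Col4a3 to Col4a6 are filled and to the right in tail and not filled in back, Col17a1 lies right in tail and left in back, and Col19a1 lies left in both.

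In labelled tail, 4 of 6 type IV chains were higher at P5 than at P1. The differences were 1.02 ± 0.16 for Col4a3 (SE, adjusted p = 0.0026), 0.90 ± 0.12 for Col4a4 (adjusted p = 0.00092), 1.10 ± 0.11 for Col4a5 (adjusted p = 0.00016) and 1.31 ± 0.12 for Col4a6 (adjusted p = 0.00011). None of these chains overlapped between the ages, and all 4 kept the call in the 13 limma refits run. The methods' t-test after Benjamini-Hochberg adjustment called no chain for age in tail. In labelled back no type IV chain was called, with differences between -0.21 for Col4a5 and 0.43 for Col4a3.

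Col17a1 was higher at P5 in labelled tail by 1.33 ± 0.19 (SE, adjusted p = 0.0015) and fell by 1.20 in labelled back (adjusted p = 0.003). Of the 8 basal keratinocyte genes, 4 were higher at P5 in tail and 5 lower in back. Col8a1 was higher at P5 in tail by 0.79 ± 0.11 (SE, adjusted p = 0.00098) and in back by 0.41 (adjusted p = 0.047). On their own, 2 of its 3 probe sets were called in tail and 0 in back. The back call ended on leaving out any 1 of the 6 back arrays (adjusted p = 0.1 to 0.2).

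Col19a1, a FACIT chain of basement membrane zones and muscle, was lower at P5 at both labelled sites. It was at -0.84, -0.70 and -0.30 in P5 tail, against 0.03, 0.06 and 0.08 in P1 tail, a difference of -0.67 ± 0.16 (SE, adjusted p = 0.027). In P5 back it was at 0.12, -0.47 and -0.24, against 0.60, 0.58 and 0.48 in P1 back, a difference of -0.75 ± 0.16 (adjusted p = 0.015). The ages did not overlap at either site, and 1 of its 3 probe sets was called on its own in each. Leaving out P1 tail replicates 4, 5 or 6 or P5 tail replicates 2 or 3 ended the tail call (adjusted p = 0.051 to 0.09), and leaving out a P1 back array or P5 back replicates 2 or 3 ended the back call (adjusted p from a value that rounds to 0.05 up to 0.087).

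Col6a3, the large chain of type VI collagen, was at -0.19, -0.52 and -0.18 in P5 tail, against 0.50, 0.02 and 0.31 in P1 tail, a difference of -0.57 ± 0.15 (SE, adjusted p = 0.046). It was at -0.02, -0.05 and 0.16 in P5 back, against 0.39, -0.02 and 0.17 in P1 back, where the ages overlapped. The tail call ended without P1 tail replicate 4 (adjusted p = 0.19), P1 tail replicate 6 (0.14), P5 tail replicate 2 (0.06) or P5 tail replicate 3 (0.084). Col16a1 was higher at P5 in tail by 0.72 ± 0.16 (adjusted p = 0.023), a call that ended without P1 tail replicate 5 (0.054) or 6 (0.094). Col26a1 fell by 0.89 in P5 back (adjusted p = 0.0027), with 1 of its 2 probe sets called. It fell by 0.32 (adjusted p = 0.59) without that probe set, which has the suffix _a. Without the arrays high in cartilage genes the age calls in back ended, where P1 back then holds 1 array. Those arrays are all labelled back, so leaving them out cannot move the differences in tail. The tail calls of Col6a3, Col16a1 and Col19a1 also ended in that fit. There the spread shared by the groups, the number of arrays behind it and the adjustment over all genes changed.

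The tail minus back difference at P5 was set against that at P1 by the interaction of site and age. It was past the threshold for 3 chains (8.11%), against 2.87% of all genes, all 3 higher (1.93% of all genes) and none lower (0.940% of all genes). Col17a1 had an interaction of 2.53 ± 0.27 (SE, adjusted p = 0.00071), Col4a6 of 1.32 ± 0.18 (adjusted p = 0.002) and Col4a5 of 1.31 ± 0.16 (adjusted p = 0.0011). All 8 basal keratinocyte genes had an interaction above 0, between 0.48 and 2.22, and 5 of them passed the threshold. Without the arrays high in cartilage genes Col17a1 kept its call (2.76, adjusted p = 0.042), while Col4a5 and Col4a6 lost theirs (adjusted p = 0.057 and 0.055). For Col4a3 and Col4a4 the interactions of 0.59 (adjusted p = 0.23) and 0.52 (adjusted p = 0.14) missed the threshold, so the P5 site difference of these 2 chains was not shown to differ from that at P1.

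Chains must be hydroxylated, folded, exported, trimmed and cross-linked before they serve as collagen, and 44 genes for these steps and for collagen receptors were measured. Of them 6 (13.6%) differed by site at P5, against 6.91% of all genes, 3 higher and 3 lower in labelled tail, and 4 (9.09%) at P1, against 3.97% of all genes, 2 higher and 2 lower. With age 2 (4.55%) were lower at P5 in labelled tail, against 5.30% of all genes called, and 1 (2.27%) was higher at P5 in labelled back, against 4.25% of all genes called. Among 4 cross-linking enzymes of the lysyl oxidase family at P5, Loxl1 (0.89, adjusted p = 0.041) and Loxl4 (0.70, adjusted p = 0.0041) were higher in labelled tail. Lox was lower there than in back by 0.50 (adjusted p = 0.023). Loxl4 was at 0.41, 0.30 and 0.25 in P5 tail, against -0.47, -0.20 and -0.47 in P5 back. It was at 0.58, 0.26 and 0.33 in P1 tail, against -0.20, -0.48 and -0.41 in P1 back, a difference of 0.75 (adjusted p = 0.0034). The Loxl1 call ended without P5 tail replicate 2 (0.57, adjusted p = 0.081) or any 1 of the P5 back arrays (adjusted p = 0.074 to 0.15), and that of Lox without P5 tail replicate 3 (adjusted p = 0.061) or any 1 of the P5 back arrays (0.066 to 0.087). Loxl4 kept both calls when single arrays were left out. Without the arrays high in cartilage genes neither of its calls held (adjusted p = 0.061 at P5 and 0.11 at P1), nor did those of Loxl1 (0.17) and Lox (0.14).

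P4ha3 is a subunit of prolyl 4-hydroxylase, which stabilises the triple helix. It was the 1 called gene of 15 for hydroxylation by site at each age (6.67%), against 6.91% of all genes at P5 and 3.97% at P1. It was at -1.03, -1.05 and -0.65 in P5 tail, against 0.19, 0.38 and 1.19 in P5 back, and at -0.19, -0.66 and -0.71 in P1 tail, against 2.14, 0.70 and 1.68 in P1 back. Its differences were -1.49 (adjusted p = 0.015) and -2.02 (adjusted p = 0.0033), and its 3 highest arrays were again those high in cartilage and tendon genes. Without P5 back replicate 3 alone the P5 difference was -1.19 and the call ended (adjusted p = 0.068). Without all 3 the P5 difference was again -1.19 and its call held. The P1 difference was then -1.22 and its call ended, with 1 array left in P1 back. Pcolce, an enhancer of the cleavage of procollagen, was lower by 1.00 in labelled P5 tail than in P5 back (adjusted p = 0.015). Adamts3, a procollagen protease, was lower by 0.57 in labelled P1 tail than in P1 back (adjusted p = 0.015). The Pcolce call ended without P5 tail replicate 3 (adjusted p = 0.052) or P5 back replicate 3 (0.069), and that of Adamts3 on leaving out P1 back replicate 1 (0.079) or P1 tail replicate 6 (0.088). Neither call held without the arrays high in cartilage genes (adjusted p = 0.097 for Pcolce and 0.66 for Adamts3).

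Of 10 genes for collagen receptors and uptake, Ddr1, a collagen-binding kinase of epithelia, was higher in labelled P5 tail by 0.65 (adjusted p = 0.021). Itga1, a collagen-binding integrin subunit, was higher in labelled P1 tail by 0.60 (adjusted p = 0.0071). With age, Plod2, a lysyl hydroxylase, fell by 0.72 (adjusted p = 0.046) and Ddr2, the collagen-binding kinase of fibroblasts, by 0.52 (adjusted p = 0.017) in labelled P5 tail, and Itga1 was higher by 0.47 in labelled P5 back (adjusted p = 0.028). Itga1 also had an interaction of -0.87 (adjusted p = 0.0096). The P5 call of Ddr1 ended without P5 tail replicates 2 or 3 or any 1 of the P5 back arrays (adjusted p = 0.054 to 0.071). The age calls ended without P1 tail replicates 4 or 6 for Ddr2 (0.06 to 0.086), without these or P5 tail replicate 3 for Plod2 (0.078 to 0.19), and without P1 back replicates 5 or 6 or P5 back replicates 1 or 2 for Itga1 (0.099 to 0.14). The calls of these 4 genes ended without the arrays high in cartilage genes. Since those arrays are labelled back, the tail differences of Plod2 (-0.72) and Ddr2 (-0.52) stayed the same. The shared spread, the number of arrays behind it and the adjustment over all genes changed. None of 8 genes for chaperones and export was called in any comparison by limma, with 1 at an unadjusted p under 0.05 for site at each age, 2 for age in tail and 0 for age in back and the interaction.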

How the data were processed

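The authors normalised the arrays by RMA, and the deposited log2 values (log base not stated) cover 45101 probe sets, each with a median over the 12 arrays within 5e-07 of 0. This centring removes levels. Column medians ran from -0.0232 to 0.0141, and no pair of columns was identical. After 64 control probe sets were left out, 45037 were tested. Of these, 34945 had 1 gene symbol in the platform annotation, 932 several and 9160 none, and the first were averaged into 18193 genes, named as the annotation gives them. All 37 chains matched RefSeq genes (GRCm38.p6), 30 with a promoter entry.

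All 12 arrays were fitted in 4 groups with limma 3.58.1 (lmFit, eBayes) in R 4.3.3, with Benjamini-Hochberg adjustment over all genes and a threshold of 0.05. The methods' filter on low values could not be applied to centred values. The procedure was tested on simulated data. The chains, lists and alternatives were chosen with earlier results of these data known. All chains could be named, and processing genes where called. The number of arrays limits the precision.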

Additional observations from a re-analysis of the deposited data

Results flagged for a closer look

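The labelled tail minus back difference was not the same at both ages for 3 chains, by the interaction of site and age in limma. Col17a1 had a difference of 1.57 at P5 and -0.96 at P1, an interaction of 2.53 (adjusted p = 0.00071). Col4a5 had 1.61 at P5 and 0.30 at P1, an interaction of 1.31 (adjusted p = 0.0011), and Col4a6 had 1.55 at P5 and 0.24 at P1, an interaction of 1.32 (adjusted p = 0.002).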

How the results depend on the processing

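Of 39 called results of single chains, 17 kept their call in every limma refit and 0 turned direction in any. Most of the others lost it without the arrays high in cartilage genes, and 9 lost it with the replicate number as a block. These counts leave out the methods' t-test and the 2-fold limit, which were tallied only as numbers of chains. Without the arrays high in cartilage genes, 3 chains were called by site at P1 (9 with all arrays), 0 by age in back (4) and 1 for the interaction (3), and P1 back then has 1 array. The arrays high in cartilage genes are all labelled back, so leaving them out cannot move the age differences in tail. Calls lost there come from the changed spread shared by the groups, the fewer arrays it is drawn from and the new adjustment over all genes. Array weights gave 16 chains at P1, 9 for age in back and 6 for the interaction. With the replicate block, age in back had 2 chains, and counts in the other comparisons stayed within 1.5 times. The labels do not tie a number to a mouse, and same-numbered arrays of both sites correlated at 0.17, -0.021, 0.26 and -0.014. Age in back gave 1 chain without probe sets with the suffixes _s, _x and _a and 8 with only its own arrays. The methods' t-test gave 10 for age in back at an unadjusted p under 0.05, and after Benjamini-Hochberg 2 for site at P5, 0 for site at P1 (12 unadjusted), 0 for age in tail (12 unadjusted) and 0 for age in back. A further 2-fold limit left 7 for site at P5, 4 for site at P1, 4 for age in tail and 1 for age in back. Leaving out 1 array at a time gave 10 to 16 for site at P5, 5 to 8 for site at P1, 6 to 9 for age in tail, 2 to 3 for age in back and 3 to 6 for the interaction. The lowest at P1 came without P1 tail replicate 6 (5), the highest interaction without P5 tail replicate 2 (6), and age in back fell to 2 without any 1 array but P5 back replicate 1. The cause was not tested. The alternatives were not run for class medians, and leaving out probe sets with the suffixes _s, _x and _a leaves no value for Col16a1 and Col17a1. With 3 arrays a group and no levels, a missed threshold does not show that values were alike.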
